A study of Mus musculus with 8 samples.

Results

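Mir-21 knockout (KO) cells were set against wild-type (WT) littermate cells after stimulation, in CD4 T cells sorted by flow cytometry from mesenteric lymph nodes. All cells compared here had received antibodies against CD3 and CD28, which engage the T cell receptor and its costimulatory receptor, for 30 min before RNA was taken. The samples were chosen by their labels alone: 4 of the 8 arrays of the series, forming 2 pairs. The first pair was Mir-21 KO CD4+CD25High cells against WT CD4+CD25High cells. The second pair was Mir-21 KO CD4+CD45High cells against WT CD4+CD45High cells. CD25 is the interleukin 2 receptor alpha chain, abundant on regulatory T cells, and no label names the CD45 isoform behind the CD45High gate. The other 4 arrays hold the same 4 combinations of genotype and population without stimulation, and serve below to show the genotype difference at rest. The labels name neither the KO allele nor the number of mice behind an array, and each combination was measured on 1 array.

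MicroRNA 21 is a short RNA that lowers messenger RNAs carrying sites paired to its seed, and T cells make more of it after activation. Engagement of the T cell receptor switches on immediate early genes within minutes, among them the AP-1, EGR and NR4A transcription factors and the feedback inhibitors that later quiet the response. In bulk RNA, fewer cells of a type and less RNA per cell cannot be told apart. The mature strand that the knockout removes is shown because its seed, in capitals, defines the pairing. It lies on the minus strand at chr11:86584120-86584141 (GRCm38.p6, RefSeq), within the span of Vmp1.
mmu-miR-21a-5p: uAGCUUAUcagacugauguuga

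The 4 stimulated arrays detected 9208 and 9543 probes in KO cells (CD25High and CD45High), against 10063 and 10001 probes in WT cells, at a detection p under 0.01. The KO CD25High stimulated array stood apart, with a median correlation across probes with the other arrays of 0.888 against 0.938 to 0.965 for the rest. Every result of its pair rests on that array, so the pairs are given separately. The sort could be seen in all 4 arrays: the 7 measured CD4 T cell markers were detected on each, and Foxp3, the transcription factor of regulatory T cells, had log2 levels of 11.49 in KO and 11.80 in WT CD25High cells, against 5.69 in KO and 6.24 in WT CD45High cells (probe ILMN_2635132). Markers of other cells were detected too. Of 5 CD8 T and NK markers with a probe, 2 and 2 were detected in KO CD25High and CD45High cells, against 3 and 2 in WT cells. Their summed linear levels were 921.3 and 867.7 in KO cells against 871.9 and 879.9 in WT cells. B cell markers were detected for 5 and 3 of 5 measured genes in KO CD25High and CD45High cells, against 4 and 3 in WT cells, with summed linear levels of 1054 and 168 in KO cells against 840.7 and 205.1 in WT cells. Myeloid and dendritic markers are given with Lyz2 and S100a8 below.

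Over both stimulated pairs no probe passed the test. The limma fit called 0 of 11047 probes higher and 0 lower in KO at a Benjamini-Hochberg adjusted p under 0.05 (0% each), with a lowest adjusted p of 0.349, while 1577 probes had an unadjusted p under 0.05. The p-values measure how alike the populations are, not the spread between mice. The values that follow are therefore not calls. Levels are log2 normalized intensities and differences are KO minus WT on that scale. The bead SE given with a difference covers the spread of beads within an array and nothing else. A probe not detected on the dim array of a pair has only a bound there, written as at least so many fold, while counts and medians over probes or genes use the measured values.

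At least 1.5-fold in the same direction in both stimulated pairs, 80 probes were higher in KO (0.724% of those tested) and 165 were lower (1.49%), while 48 lay that far apart in opposite directions (0.435%). Both KO arrays lay above both WT arrays for 19.4% of all probes and below them for 12.9%. Among the 80 probes higher by that much in both pairs, the largest mean difference belonged to a probe of Vmp1. Vmp1 is a membrane protein needed for autophagy whose gene holds Mir21a. Vmp1 probe ILMN_2861787 had levels of 7.45 and 6.26 in KO cells (CD25High and CD45High), against 4.63 and 4.45 in WT cells. It was detected on both KO and on neither WT array, which makes it at least 6.41-fold higher in the CD25High pair and at least 2.77-fold higher in the CD45High pair. The other 4 Vmp1 probes did not move as one: ILMN_2767635 differed by 0.70 and 0.24, and another by -2.24 and -0.71. The remaining 2 were not detected in KO cells, which makes them at least 2.28- and 2.27-fold lower in the CD25High pair and at least 1.35- and 1.13-fold lower in the CD45High pair. No probe on the array carries the symbol of Mir21a, so the deletion was not measured, and where the Vmp1 probes lie relative to it was not analysed here. At rest ILMN_2861787 was already higher in KO, by 1.79 and 1.12.

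Slc15a2, a transporter of small peptides, had levels of 8.44 and 8.52 in KO cells against 7.21 and 6.81 in WT cells, a mean difference of 1.46 ± 0.34 (SD, 2 pairs; limma adjusted p = 0.349). The genotypes did not overlap. Its difference at rest was 0.87 in CD25High and 0.40 in CD45High cells, so the KO level was already the higher one there. Haspin, a histone kinase of mitosis, stood at 6.99 and 6.75 in KO cells against 5.64 and 5.81 in WT cells, with resting differences of 0.68 and 0.57. For Slc15a2 and Haspin the resting pairs pointed the same way as the stimulated pairs. Ifngr2, which pairs with Ifngr1 to bind interferon gamma, stood at 9.22 and 8.72 in KO cells against 8.24 and 7.85 in WT cells with its brightest probe. Its other 2 probes were lower in the CD25High pair, 1 by at least 1.81-fold and not detected in KO and 1 at -1.03, and gave 0.29 and 0.33 in the CD45High pair. Traf7, a ubiquitin ligase of MAP kinase signalling, stood at 6.76 and 6.42 in KO cells against 5.96 and 5.39 in WT cells, with resting differences of 0.38 and -0.33. Single probes of Coil, the coilin of Cajal bodies (1.10 and 0.74), and of Fancl, a ubiquitin ligase of DNA repair (1.01 and 0.86), were as far apart, but their other probes gave 0.03 and 0.07 for Coil and -0.54 and -0.15 for Fancl.

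A second set of genes lay within 1.5-fold of level between the genotypes at rest and further apart after stimulation. Tcf7, the transcription factor TCF1 of naive and memory T cells, had levels of 9.23 and 9.998 in KO cells, against 8.16 and 9.12 in WT cells, while its resting differences were 0.07 and -0.16. Its other probe gave 0.95 and 0.54 in the stimulated pairs. Msi2, an RNA-binding protein of the Musashi family, had levels of 8.70 and 8.21 in KO cells against 7.72 and 7.28 in WT cells, and resting differences of 0.00 and -0.04. Its second, dimmer probe gave 0.75 and 0.10. P2ry14, a receptor for UDP-glucose, had levels of 6.49 and 8.04 in KO cells against 5.53 and 7.17 in WT cells, and its second probe differed by 0.85 and 0.69. At rest, P2ry14 was at -0.37 and -0.15. Inppl1, the lipid phosphatase SHIP2, differed by 1.06 and 0.76 after stimulation and by 0.05 and -0.15 at rest, but its second probe gave 1.11 and 0.15. For Tcf7, Msi2 and P2ry14 the KO level lay further from its resting value than the WT level did in both populations, as the plot of levels by array shows. None passed the test of the difference between stimulated and resting pairs (limma adjusted p of 0.863 for Tcf7, Msi2, P2ry14 and Inppl1).

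**Figure D1:**
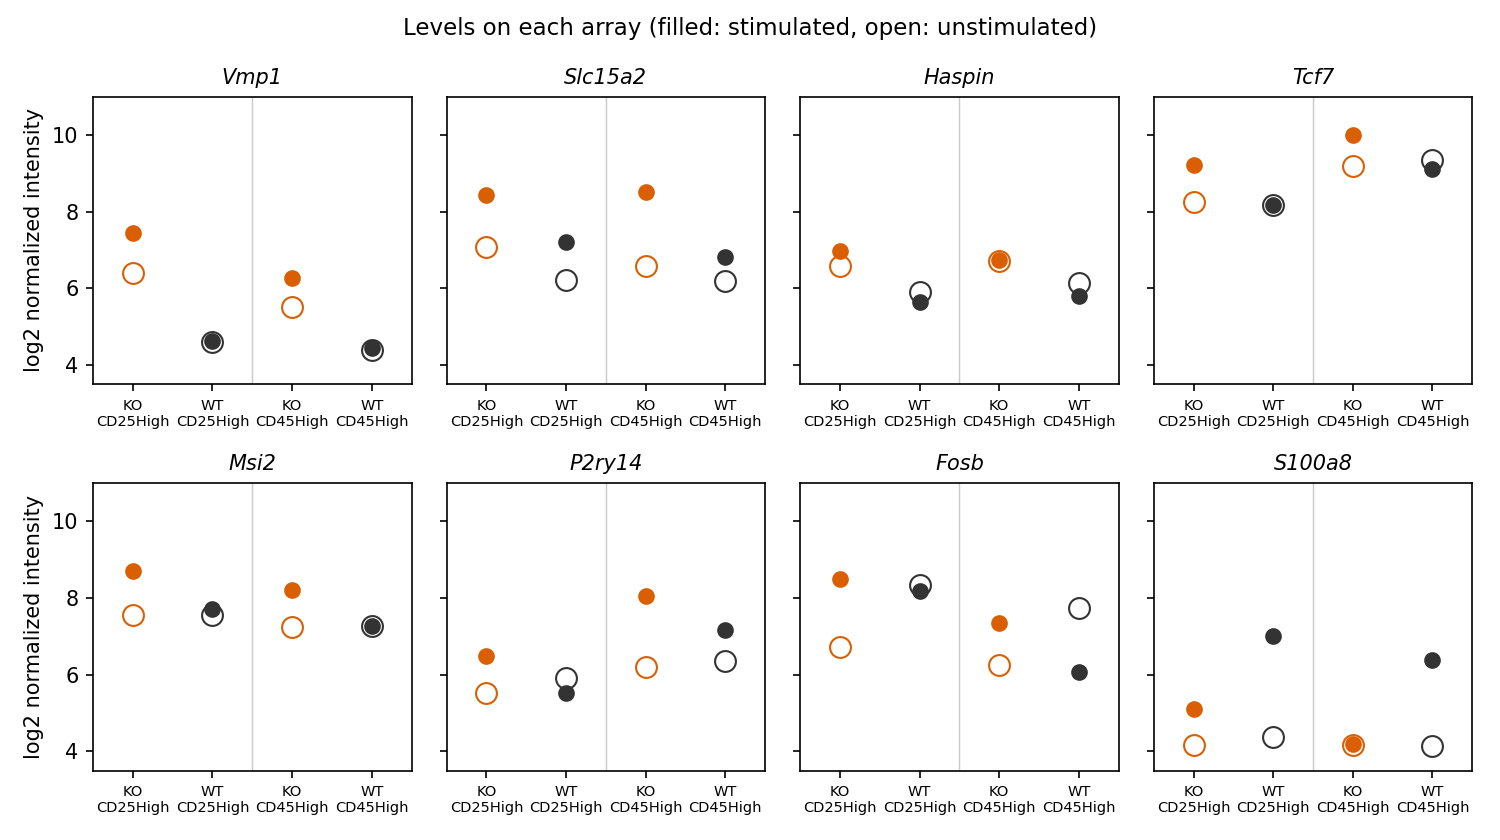
Log2 normalized intensity of 8 probes on each of the 8 arrays, with KO left of WT within each sorted population, filled points stimulated and open points unstimulated (1 array each, no error bar). After stimulation Vmp1 probe ILMN_2861787, Slc15a2, Haspin, Tcf7, Msi2 and P2ry14 lie higher in KO than in WT in both populations and S100a8 lies lower, while the Fosb difference is negative at rest (-1.61 and -1.48) and positive after stimulation (0.32 and 1.26).

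Among probes at least 1.5-fold lower in both pairs, those with the largest mean differences had little or no signal left on the KO CD25High array. Hspa8, the constitutive HSC70 chaperone, had levels of 5.38 and 11.44 in KO cells against 12.82 and 12.17 in WT cells, differences of -7.44 (bead SE 0.15) and -0.73 (bead SE 0.08). Eif4g2, a translation initiation factor, stood at 4.47 and 8.05 in KO cells against 9.49 and 9.13 in WT cells, at least 22.2-fold lower in the CD25High pair, and a dim second probe gave 0.41 there. Rbbp7, a histone-binding protein, had probes at -5.00 and -4.53 and another at least 22.1-fold lower in the CD25High pair, and the 3 lay between -0.74 and -0.51 in the CD45High pair, while a dim probe was at least 1.54-fold higher in KO CD25High cells. For the bright probes of these genes the sign was shared by both pairs and the size was not. The brighter probes of several others were near level: G3bp1, a stress granule protein, was at least 14.8-fold lower in the CD25High pair and at -0.66 in the CD45High pair with 1 probe, but gave -0.14 and -0.04 with the brighter one. Hspd1, the mitochondrial HSP60, was at least 7.54-fold lower and at -0.59 with 1 probe, but gave 0.11 and -0.08 with the brighter one. Sqle, an enzyme of cholesterol synthesis, was lower with both probes in both pairs, by at least 5.04-fold and at -0.37 in CD25High cells and at -0.99 and -0.69 in CD45High cells.

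S100a8 and Lyz2, markers of neutrophils and macrophages rather than T cells, lay lower in KO in both pairs. They are 2 of the 4 myeloid and dendritic markers tested, and the other 2 lay the other way in CD25High cells: Fcer1g, a signalling chain of Fc receptors, stood at 7.81 in KO against 7.59 in WT, and Tyrobp, the adaptor DAP12, at 5.54 in KO against 4.74 in WT, where it was not detected. In the CD45High pair neither was detected in KO. S100a8, a calcium-binding protein of myeloid cells, had levels of 5.11 and 4.19 in KO cells, against 6.997 and 6.39 in WT cells, and was not detected in KO CD45High cells (at least 2.79-fold lower). On the resting arrays it was undetected and nearly level, with differences of -0.22 and 0.03. Lyz2, lysozyme, stood at 4.27 and 4.73 in KO cells against 7.61 and 6.13 in WT cells, and was detected on neither KO array (at least 6.06- and 2.33-fold lower). At rest it stood at 8.22 and 7.88 in KO cells against 8.34 and 7.03 in WT cells, so both genotypes held its signal there. A second Lyz2 probe was detected on none of the 4 arrays. Across the list of 8 myeloid and dendritic markers, 3 were detected in KO CD25High cells and 0 in KO CD45High cells, against 4 and 3 in WT cells, with summed linear levels of 297 and 36.28 in KO cells against 516.3 and 173.4 in WT cells. Cd14, Csf1r and Itgax were undetected on all 4 arrays. The part of these cells in any other result was not tested.

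**Figure D2:**
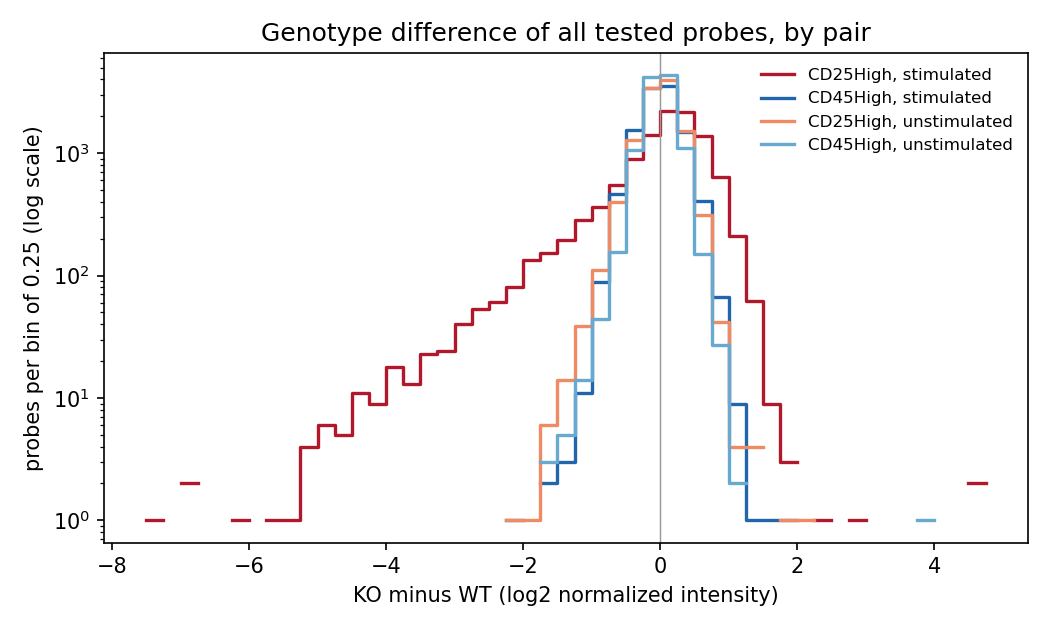
Number of probes (log scale, 11047 in all) per step of 0.25 in the KO minus WT difference (log2), one line for each of the 4 pairs. The stimulated CD25High pair has a tail down to -7.44 and an SD of 0.815, while the stimulated CD45High pair keeps between -2.20 and 1.81 with an SD of 0.299.

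In the stimulated CD25High pair alone, 290 probes were over 2-fold higher in KO (2.63%) and 1121 were over 2-fold lower (10.1%). There is no replicate behind either array of this pair and no test. Over 4-fold, 4 probes were higher and 353 lower, and 41 were over 16-fold lower. The median of all probes stood at 0.14 rather than 0, against -0.0003 in the stimulated CD45High pair. Detected in WT but with a detection p of 0.05 or above in KO were 904 probes (8.18% of the 11047 tested), and 113 were lost the other way (1.02%). In the stimulated CD45High pair the corresponding numbers and shares of all probes tested were 155 and 65 (1.4% and 0.588%). In the resting pairs they were 63 and 99 in CD25High cells (0.57% and 0.896%) and 59 and 67 in CD45High cells (0.534% and 0.606%). The 904 lost probes had a median WT level of 5.38, below the 6.71 of all probes. The 353 probes over 4-fold lower had a median WT level of 7.89, but a probe that is dim in WT has no room to fall so far. On the KO CD45High stimulated array 350 of the 353 were detected, and on the KO CD25High resting array 348 were. Chosen in one pair, these probes had medians of -0.25 in the stimulated CD45High pair and -0.34 in the resting CD25High pair, with 76.8% and 87.3% below 0, against 50% and 47.3% of all probes.

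Losses of the largest size can be seen only for probes that are bright in WT cells, and 3 such probes are given here. Ppp1ca, the catalytic subunit of protein phosphatase 1, had 1 probe at 4.31 in KO against 11.18 in WT CD25High cells, at least 71.7-fold lower, while its other probes gave -0.67 and -0.80. Eif5a, a translation elongation factor, was at least 85.9-fold lower with 1 probe and differed by -2.0015 with the other. Msn, the moesin that ties actin to the membrane, was at least 42.7-fold lower by its probe. In the CD45High pair the same probes of Ppp1ca, Eif5a and Msn differed by -0.17, -0.53 and -0.32. Cd247, the zeta chain of the T cell receptor complex, was at least 26.8-fold lower with 1 probe in the CD25High pair and gave 0.41 and 0.90 with the others. In the CD45High pair its 3 probes gave -0.22, 0.08 and 0.09.

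Probes of one gene disagreed in that pair far more often than in the others. Of 2103 genes with at least 2 tested probes, 715 (34%) had probes over 2-fold apart in the KO minus WT difference, against 28 (1.33%) in the stimulated CD45High pair and 56 and 7 in the resting CD25High and CD45High pairs. Actb, cytoskeletal actin, is the plainest case. Its 5 probes had levels of 13.87, 12.67, 6.53, 12.24 and 13.02 in KO CD25High cells, against 11.42, 8.15, 10.76, 12.67 and 8.29 in WT CD25High cells. Their differences were therefore 2.45, 4.53, -4.23, -0.43 and 4.74, and in the CD45High pair 0.52, 0.12, -0.74, -0.11 and 0.52. Coro1a, an actin-binding coronin of lymphocytes, gave -0.09, -1.34 and -3.67 with 3 probes and was at least 31.3-fold lower with the remaining one. H2-Ab1, a class II antigen-presenting chain, gave 0.60 and 0.08 with 2 probes and was at least 27.3-fold lower with the other. Foxp3 gave -3.63 with 1 probe and -0.30 and 0.01 with the others. Of 204 genes with a probe over 4-fold lower, 169 had another probe within 2-fold of level, and 35 had every probe over 2-fold lower. Where the probes lie along the transcripts was not analysed here.

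**Figure D3:**
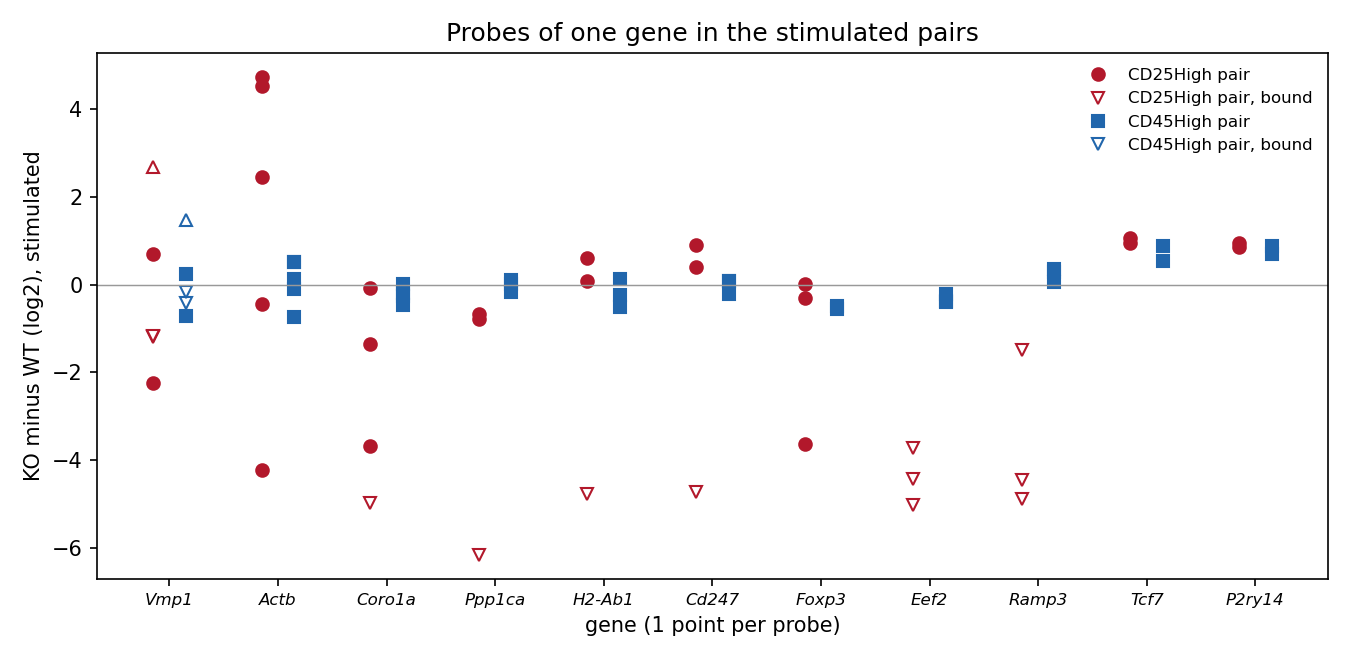
KO minus WT difference (log2) of every tested probe of 11 genes in the stimulated pairs, circles for CD25High and squares for CD45High cells (1 point per probe). Open triangles are bounds for probes not detected on the dim array and point away from 0, and a Foxp3 probe detected on neither CD45High array is not drawn. In CD25High cells the probes of Actb run from -4.23 to 4.74 and those of Ppp1ca from a bound of -6.16 to -0.67, whereas all 3 probes of Eef2 and Ramp3 are low bounds and both probes of Tcf7 and P2ry14 are above 0.

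The next genes were counted only where all probes lay the same way, a choice made after the values were seen. With at least 2 probes, all at least 1.5-fold one way, 73 genes were higher (3.47%) and 113 lower (5.37%) in KO CD25High cells, against 4 higher (0.19%) and 8 lower (0.38%) in KO CD45High cells. Eef2, the translation elongation factor, was lower with all 3 probes in CD25High cells, at 4.89, 4.32 and 4.46 in KO, where none was detected, against 10.04, 8.73 and 9.45 in WT. Syngr2, a vesicle membrane protein, was at least 8.31-, 9.91- and 12.1-fold lower with its 3 probes. Tnfrsf18, the receptor GITR of regulatory T cells, differed by -1.22 and -1.20. Stat5a, a transcription factor downstream of interleukin 2, stood at 7.93 in KO against 10.54 in WT with its brighter probe and differed by -1.33 with the other. Lef1, a partner of TCF1, was at least 3.09-fold lower with 1 probe and differed by -1.44 with the other, opposite in sign to Tcf7. Higher in KO with both probes were Nrp1, a surface receptor of thymic regulatory T cells, at 0.85 and 0.63, and Capg, an actin-capping protein, at 0.71 and 0.78. In the CD45High pair Eef2 differed by -0.22 to -0.40, Syngr2 by -0.34 to 0.07, Stat5a by 0.09 and 0.23 and Lef1 by -0.09 and -0.07. As means of their probes, Tnfrsf18 stood at -0.17 there, Nrp1 at -0.26, opposite in sign to the CD25High pair, and Capg at 0.07.

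By the same count in CD45High cells, the 4 genes higher with every probe were Dusp10, a phosphatase of p38 and JNK, Gadd45g, a stress and activation gene, P2ry14 and Pim1, a survival kinase. Dusp10 had levels of 7.25 and 7.32 in KO against 6.50 and 6.49 in WT CD45High cells, and it was higher in KO CD25High cells too (0.50 and 0.95). Gadd45g and Pim1 each had a probe not detected on the KO CD25High array, at least 3.71- and 9.49-fold lower. The 8 genes lower with every probe in CD45High cells were Ampd1, Bcap29, Eprs, Gbp2, Mcu, Rnf114, Rps6kb1 and Sqle. In the CD25High pair Ampd1 went the other way with both probes (1.26 and 1.30), as did Bcap29 on the mean of its probes (0.46). The rest had negative means there. Gbp2, an interferon-induced GTPase, differed by -0.74 and -0.63. Rps6kb1, the S6 kinase whose gene is on the list of neighbours of Mir21a, differed by -0.87 with 1 probe and was at least 1.19-fold lower with the other, and neither Mcu probe was detected in KO CD45High cells.

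The stimulated CD45High pair was much the quieter one. In it 12 probes were over 2-fold higher (0.109%) and 17 over 2-fold lower (0.154%), with no replicate and no test. Among probes higher in KO, the largest difference after Vmp1 and Slc15a2 was that of Fosb, an AP-1 subunit, with 7.34 in KO and 6.07 in WT CD45High cells (difference 1.26, bead SE 0.18). Fos, its relative, stood at 9.78 in KO and 8.73 in WT CD45High cells (1.05, bead SE 0.12). In CD25High cells Fos stood at 10.10 in KO and 9.74 in WT, and Fosb at 8.50 in KO and 8.18 in WT. Rchy1, a ubiquitin ligase of p53, stood at 7.28 in KO and 6.09 in WT CD45High cells, and Ms4a6b, a membrane protein of T cells, at 6.73 in KO and 5.55 in WT. Their differences in the CD25High pair were 0.28 and 0.42. Besides S100a8 and Lyz2, the lower probes included Nup88, a nuclear pore protein, at -1.55, but its brightest probe gave -0.32, and Capn2, a calpain protease, at -1.14, with its other probes at -0.76 and -0.17. Mybbp1a, a nucleolar protein, had 1 probe at -1.08 and its brightest at -0.47.

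Immediate early genes lay higher in KO relative to WT after stimulation than at rest, in both populations. Of 51 measured genes of the list, 43 had a larger KO minus WT difference after stimulation than at rest (57.3% of all genes did), with a median shift of 0.62 against 0.06 for all 8104 genes. The list was chosen with earlier results of these data known, so the count is a description. The limma test of this shift called 0 of 11047 probes higher and 0 lower (0% each), and 403 had an unadjusted p under 0.05. At rest only 8 and 7 of them were above 0 (CD25High and CD45High pairs, with 56.2% and 51.7% of all genes above 0), with medians of -0.49 and -0.35. Over 2-fold lower in KO at rest were 15 in CD25High cells (0.469% of all genes) and 7 in CD45High cells (0.185%). After stimulation 28 were above 0 in the CD25High pair (66.3% of all genes) and 37 in the CD45High pair (52.1% of all genes), with medians of 0.02 and 0.28. The median of 0.02 becomes -0.02 when all probes of a gene are averaged. None of the 51 genes was called, and in the CD25High pair the share above 0 was below that of all genes. The resting medians lay further from 0 than the stimulated ones, as the plot of list members shows.

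Fosb shows the pattern on all 8 arrays. After stimulation it stood at 8.50 and 7.34 in KO cells against 8.18 and 6.07 in WT cells, and at rest at 6.73 and 6.26 in KO cells against 8.34 and 7.75 in WT cells. WT cells thus had no more Fosb after stimulation than at rest, while KO cells had more. Tnfaip3, the A20 brake on NF-kappaB signalling, stood after stimulation at 10.81 and 10.44 in KO against 10.64 and 9.71 in WT cells, and at rest at 8.25 and 7.79 in KO against 9.93 and 9.32 in WT cells. Gadd45b, a stress gene induced by NF-kappaB, stood after stimulation at 10.78 and 9.98 in KO against 11.24 and 9.30 in WT cells, and at rest at 7.36 and 6.83 in KO against 9.54 and 8.38 in WT cells. Both genes gained more signal with stimulation in KO cells. The shift, stimulated minus resting difference, was 2.34 for Fosb, 2.05 for Tnfaip3 and 1.98 for Gadd45b over both populations, each with a limma adjusted p of 0.863. Ier3, an early survival gene, and Tob1, an antiproliferative factor of resting T cells, had shifts of 1.58 and 1.61. Rasl11b, a small GTPase of the Ras family, shifted by 1.64, and its second probe by 1.51.

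With a stimulated CD25High array left out, only the CD45High pair informs the stimulated difference. The spread between stimulated pairs cannot then be estimated, so values are given without a test. The values are shifts, not KO minus WT levels. Each is the KO minus WT difference of the stimulated CD45High pair less the mean difference of both resting pairs, CD25High and CD45High. They are therefore not shifts within CD45High cells alone. In limma's fit without that array the shift was positive for Fosb (2.81), Gadd45b (2.55) and Tnfaip3 (2.33). It was positive too for Irs2, an adaptor of insulin and cytokine receptors (2.18), and Ier3 (2.00). The shift of S100a8 was negative (-2.10), and its stimulated difference was -2.20 as measured. These values rest on 1 stimulated pair, and the genes were named after that fit was seen. The values are the same whichever of the CD25High stimulated arrays, KO or WT, is left out.

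**Figure D4:**
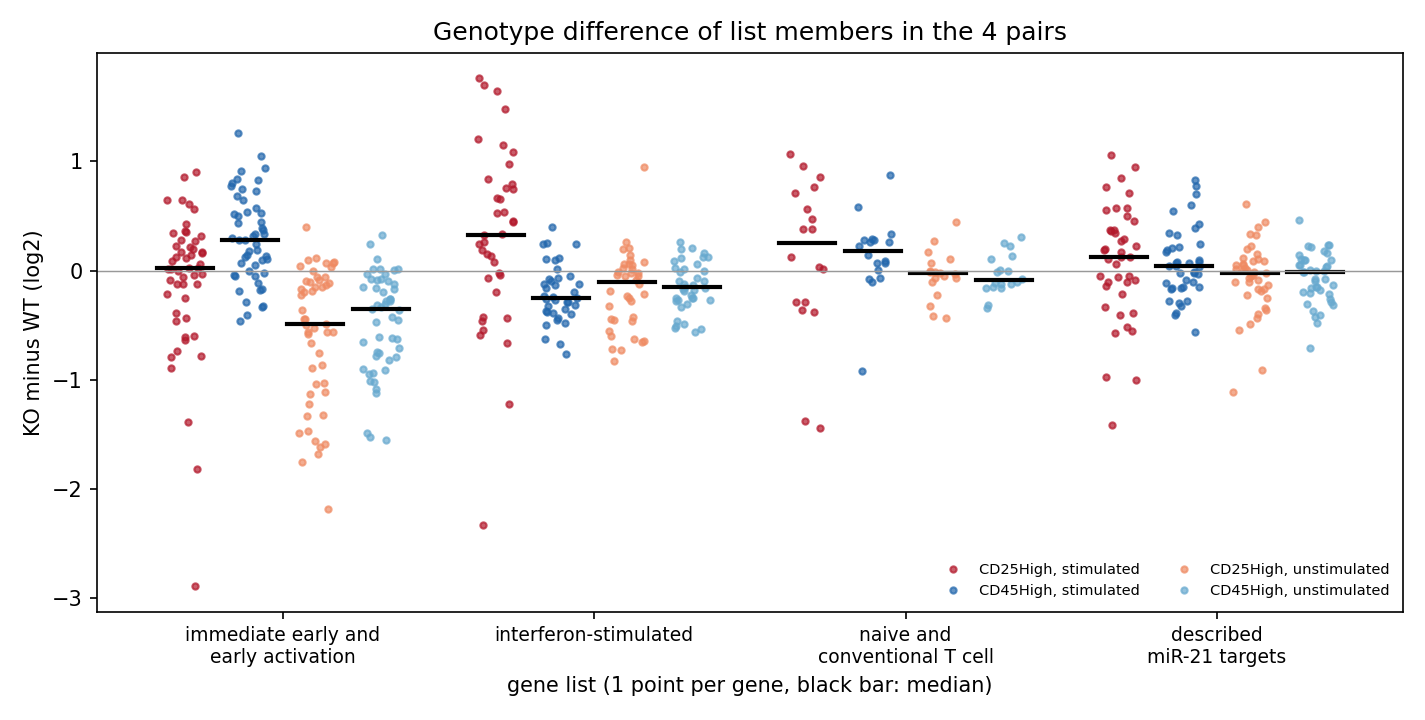
KO minus WT difference (log2) of each measured gene of 4 lists (brightest probe) in the 4 pairs, stimulated pairs first, with the median as a black bar. The immediate early genes have medians of 0.02 and 0.28 after stimulation and -0.49 and -0.35 at rest, and the interferon-stimulated genes have 0.33 in the stimulated CD25High pair and -0.25 in the stimulated CD45High pair.

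Other early genes took different courses in the populations. Junb, an AP-1 subunit, differed by -0.78 in CD25High and 0.50 in CD45High cells after stimulation. Nr4a2 and Nr4a3, orphan nuclear receptors induced through the T cell receptor, differed by -0.21 and -0.60 in CD25High cells and by 0.91 and 0.80 in CD45High cells. Egr1, a zinc finger factor induced by MAP kinase, was closer to level, with 11.42 and 11.69 in KO cells against 11.25 and 11.35 in WT cells. Cd69, an early surface marker of activation, had levels of 12.43 and 12.23 in KO cells against 12.15 and 12.40 in WT cells. Irf4, a factor that scales with receptor signal strength, was lower in both, at -0.61 and -0.46, and Myc was at least 4.9-fold lower in KO CD25High cells and differed by -0.34 in CD45High cells.

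The promoters of Fosb and Fos are shown because both genes were over 2-fold higher in the CD45High pair, with the core of the cyclic AMP response element (TGACG on either strand, which the full element TGACGTCA also holds) in capitals. They run from 250 bases before to 50 after the start of the gene (GRCm38.p6, RefSeq), Fosb at chr7:19309996-19310295 on the minus strand and Fos at chr12:85473640-85473939 on the plus strand.
Fosb: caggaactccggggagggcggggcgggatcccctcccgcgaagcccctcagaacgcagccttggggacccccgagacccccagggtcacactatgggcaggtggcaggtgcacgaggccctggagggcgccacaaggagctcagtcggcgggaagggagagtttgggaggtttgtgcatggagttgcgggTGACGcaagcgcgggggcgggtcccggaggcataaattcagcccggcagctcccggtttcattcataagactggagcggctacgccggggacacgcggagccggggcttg
Fos: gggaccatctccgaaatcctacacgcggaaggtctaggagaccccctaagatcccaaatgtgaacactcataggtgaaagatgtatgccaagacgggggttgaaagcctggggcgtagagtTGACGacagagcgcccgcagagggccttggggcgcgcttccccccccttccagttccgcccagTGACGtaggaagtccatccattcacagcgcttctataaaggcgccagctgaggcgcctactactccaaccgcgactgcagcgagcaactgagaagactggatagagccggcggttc

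Of the 37 immediate early genes with a promoter in the table, out of 51, 22 held this core (59.5%), against 23% of 27025 genes with a promoter. The full element was in 6 of them (16.2%), against 2.03% of the 27025, which were not limited to genes measured here. The motifs were chosen with the values known, and a match is a description of these letters, not of a bound site.

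Genes answering stimulation in one population were read in the other, since the arrays that choose them are then not the arrays compared. Chosen in CD45High cells were 22 probes of 18 genes, at least 4-fold higher after stimulation in both genotypes. In CD25High cells 17 of the 22 were over 2-fold higher after stimulation in KO, against 22 of 22 in WT, with median changes of 1.98 in KO and 2.32 in WT. In the stimulated KO minus WT difference 6 of the 22 lay above 0 (60.7% of all probes did), with a median of -0.21 against 0.14 for all probes. Over 2-fold lower were 4 of them (10.1% of all probes), belonging to Ramp3, Tgif1, a homeobox repressor (-3.09), and Itm2a, a membrane protein of activated T cells (-1.87). A second, brighter Tgif1 probe among the 22 went the other way (0.36), at 9.15 in KO and 8.79 in WT CD25High cells. Crem, a cyclic AMP responsive factor, stood at 9.34 in KO and 9.46 in WT CD25High cells with its brightest probe, and Il4i1, an amino acid oxidase, at 10.63 in KO and 10.73 in WT. Ramp3, a receptor activity-modifying protein, was not detected on the KO CD25High array: its stimulated levels were 4.60, 4.19 and 4.41 with 3 probes in KO CD25High cells, against 9.89, 6.51 and 9.47 in WT CD25High cells. In CD45High cells Ramp3 stood at 9.22, 6.37 and 8.64 in KO against 8.86, 6.31 and 8.36 in WT. Crem, Il4i1, Ramp3, Tgif1 and Itm2a were singled out after their values were seen.

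Chosen in CD25High cells and read in CD45High cells, 51 probes of 42 genes were at least 4-fold higher after stimulation. They had a median change of 1.56 in KO and 1.43 in WT CD45High cells, and 32 of 51 lay above 0 in the stimulated KO minus WT difference (49.7% of all probes). Some of the 51 were dim in CD45High cells and barely changed with stimulation there, and their signs say little. After stimulation Csf2 stood at 4.21 in KO and 4.23 in WT CD45High cells, and Calca at 4.37 in KO and 4.36 in WT. Of 14 probes that were at least 4-fold lower after stimulation, 0 lay above 0, with a median of -0.36. Their median change with stimulation was -1.68 in KO and -1.18 in WT CD45High cells. The rise or fall was required in both genotypes, so the KO CD25High stimulated array took part in choosing the 51 and the 14. Of the 353 probes over 4-fold lower in the stimulated CD25High pair, 76.8% lay below 0 in the stimulated CD45High pair too. The counts of 32 and 0 are therefore not readings free of the KO CD25High stimulated array. Among the 14, and chosen after the values were seen, Igfbp4, a binding protein of insulin-like growth factors, stood at 9.72 in KO and 10.63 in WT CD45High cells, but at 10.31 in KO and 10.45 in WT with its second probe.

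Interferon-stimulated genes lay mostly below 0 in the stimulated CD45High pair, while in the CD25High pair their share above 0 was near that of all genes. Of 38 measured genes, 26 were above 0 in the CD25High pair (68.4%, against 66.3% of all genes) with a median of 0.33 against 0.19 for all genes, and 7 were over 2-fold higher and 2 over 2-fold lower (2.89% and 6.96% of all genes). In the CD45High pair 8 of 38 were above 0 (21.1%, against 52.1% of all genes) with a median of -0.25 against 0.01, and none was over 2-fold apart. Mx2, an antiviral GTPase, had levels of 6.48 and 5.16 in KO cells against 4.72 and 5.24 in WT cells. Rsad2, the antiviral enzyme viperin, had levels of 6.82 and 6.47 in KO cells against 5.12 and 6.92 in WT cells. Oas2, a sensor of double-stranded RNA, had levels of 6.88 and 7.20 in KO cells against 5.23 and 7.68 in WT cells. The WT CD25High stimulated array was the low one for these 3 genes: at rest Mx2 stood at 6.58 in KO and 7.03 in WT CD25High cells, Rsad2 at 7.41 in KO and 8.06 in WT, and Oas2 at 7.73 in KO and 8.16 in WT. Phf11, a nuclear PHD finger protein, gave 1.70 and 1.20 in the CD25High pair and -0.47 and -0.76 in the CD45High pair. Ifit2, an antiviral RNA-binding protein, gave 0.98 and 1.04 in the CD25High pair and 0.10 and -0.10 in the CD45High pair.

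Members differed among themselves, and Ifit2, Ifit3, Ifi35 and Irf9 were picked out of the list after their values were seen. Irf9, a transcription factor of the interferon response, gave -0.67 and -1.43 in the CD25High pair and -0.39 and -0.76 in the CD45High pair. Ifit3, a relative of Ifit2, gave 1.48 with its brighter probe in the CD25High pair, where the other was not detected in KO. Ifi35, a leucine zipper protein, was lower in both pairs at -2.33 and -0.67, as was Gbp2 with both probes. The difference between the populations was not tested.

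The promoter of Rsad2 is shown because the gene was among the furthest apart, with the interferon-stimulated response element in capitals (TTTC, any 2 bases, then TTTC, searched on both strands), at chr12:26456403-26456702 on the minus strand (GRCm38.p6, RefSeq).
Rsad2: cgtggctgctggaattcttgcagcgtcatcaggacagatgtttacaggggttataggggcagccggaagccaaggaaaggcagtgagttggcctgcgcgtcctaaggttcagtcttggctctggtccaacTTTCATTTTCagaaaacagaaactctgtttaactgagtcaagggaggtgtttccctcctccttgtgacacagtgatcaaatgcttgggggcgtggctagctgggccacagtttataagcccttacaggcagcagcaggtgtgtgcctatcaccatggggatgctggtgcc

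Of the 24 interferon-stimulated genes with a promoter in the table, out of 38, 12 held this element (50%). Among the 27025 genes with a promoter, measured here or not, 3.99% held it. The immediate early genes held it in 2 of 37 cases (5.41%).

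Described targets of miR-21 were near the background in both pairs. Of 41 measured targets, 24 were above 0 in the CD25High pair (58.5%, against 66.3% of all genes) and 22 in the CD45High pair (53.7%, against 52.1%), with medians of 0.13 and 0.04 against 0.19 and 0.01 for all genes. The second median becomes -0.14 without between-array normalization, where the median of all probes is -0.15. It becomes -0.01 when probes are averaged. Over 2-fold, 1 was higher and 2 lower in the CD25High pair (2.89% and 6.96% of all genes) and none in the CD45High pair. Pdcd4, a tumour suppressor widely used as a reporter of miR-21 activity, stood at 5.83 and 6.77 in KO cells against 6.24 and 6.87 in WT cells, with the KO value the lower one in each pair. Rasa1, a brake on Ras, differed by 0.50 and 0.39, and Reck, an inhibitor of metalloproteases, by 1.06 in the CD25High pair and at least 1.18-fold the other way in the CD45High pair, where it was not detected in KO. Dusp10, described above, is also on this list. Of the other named candidates, Il2 and Spry1 have no probe under those symbols, and the single probe of Nr4a1 was not tested.

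Genes of regulatory T cells were lower in KO on the median in both stimulated pairs, -0.20 and -0.22 over 21 genes against 0.19 and 0.01 for all genes. However, the first becomes 0.16 without between-array normalization, where the median of all probes is 0.26. The second becomes -0.09 without background correction. Above 0 were 7 and 6 of 21 (33.3% and 28.6%, against 66.3% and 52.1% of all genes). None was over 2-fold apart in the CD45High pair, and 2 were over 2-fold higher and 3 lower in the CD25High pair (2.89% and 6.96% of all genes). Foxp3 differed by -0.30 and -0.55 with its brightest probe and Il2ra, the CD25 chain, by -0.37 and -0.51. Ikzf2, the Helios factor, had levels of 7.13 and 4.98 in KO cells against 8.29 and 5.37 in WT cells, while its resting difference in CD25High cells was 0.45. Ctla4, an inhibitory receptor, went the other way at 0.13 and 0.76. Il10, an inhibitory cytokine, stood at 8.61 in KO and 9.10 in WT CD25High cells and was undetected in CD45High cells.

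Naive and conventional T cell genes had medians of 0.25 and 0.18 over 18 genes, against 0.19 and 0.01 for all genes. Above 0 were 12 and 14 (66.7% and 77.8%, against 66.3% and 52.1% of all genes), so the share in the CD25High pair was that of all genes. Tcf7 is one of them, and Lef1 is another that lay the opposite way in the CD25High pair. Klf2, which keeps T cells in circulation, differed by 0.86 and 0.14, and Dgka, a lipid kinase that restrains receptor signalling, by 0.96 and 0.28 with its brightest probe. Another Dgka probe was near level, at 0.06 and 0.07. The resting medians of the list were -0.03 and -0.09. The first becomes 0.36 without between-array normalization, where the median of all probes in that resting pair is 0.34. Genes of MYC and ribosome assembly had a median of -0.32 in the CD45High pair, with 7 of 27 above 0 (25.9%, against 52.1% of all genes), and of -0.0033 in the CD25High pair. The CD25High value becomes 0.32 without between-array normalization, where the median of all probes is 0.26. Nop10, a small nucleolar protein, differed by -0.32 and -0.50, and Gnl3, the nucleolar protein nucleostemin, by -0.13 and -0.40 with its brightest probe.

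Several lists had members far lower on the KO CD25High array. Over 2-fold lower in that pair were 9 of 33 translation factors, 8 of 37 genes of the actin cortex, 6 of 27 chaperones and 5 of 26 genes of the T cell receptor complex (6.96% of all genes), against 1, 0, 0 and 0 in the CD45High pair. Bright members of these lists differed: Hspa8 had the largest measured loss, while Eef1a1, the most abundant elongation factor, stood at 14.38 in KO and 14.44 in WT CD25High cells, and Cd3g, a chain of the CD3 complex, at 12.06 in KO and 11.46 in WT. Ribosomal proteins had medians of 0.03 and 0.00 over 51 genes, the first of which becomes -0.25 with cyclic loess normalization. Effector and memory genes had medians of 0.29 and -0.07 over 24 genes, against 0.19 and 0.01 for all genes. Among them Prf1, perforin, stood at 9.23 and 8.65 in KO cells against 8.32 and 8.23 in WT cells, with resting differences of 1.49 and 0.52.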

How the data were processed

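RNA of 8 samples was hybridised to Illumina MouseRef-8 v2.0 BeadChips, 1 array for each combination of genotype, sorted population and stimulation. The deposited intensities are mean bead signals of 25697 probes, not normalized per the file headers, with bead numbers and standard errors. The deposited detection p-values compare each probe with negative controls, per the file headers. A deposited log2 table holds 14533 of the probes. Its normalization is named nowhere beyond limma, per the submitters' processing notes, and it was used as an alternative (its lowest correlation across probes with the values used here was 0.999998).

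The intensities were corrected with normexp from the detection p-values (limma 3.58.1 in R 4.3.3, neqc), offset by 16, taken to log2 and quantile normalized. Kept were 11047 probes of 8104 genes that passed a detection p of 0.01 on 2 or more arrays. Symbols were updated through RefSeq: 20733 probes had current, 3872 older and 1092 unmatched symbols. Gene counts use the brightest probe of a gene.

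The limma fit held a block for each pair of KO and WT arrays (same population and stimulation, per the labels), a KO effect in stimulated arrays and a KO effect in resting arrays, with 2 residual degrees of freedom. Pairing comes from the sorted population, which the labels give. Single pairs have no test. A lost probe has a detection p under 0.01 on one array and 0.05 or above on the other. Where the dim side was not above background, a fold is given as a lower bound or levels alone are given; counts, medians and fits use measured values. Named are the largest same-direction differences over both pairs, the largest of each pair, the largest shifts against rest, members of the lists and a set of written-down genes; others are said to be chosen after their values were seen. The members and lists were chosen with earlier results of these data known. Neither slides nor scan dates are given in the sources used here, and no batch was tested. Precision is limited by having 1 array per combination.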

Additional observations from a re-analysis of the deposited data

Results flagged for a closer look

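Of the gene lists, 10 had medians on one side of 0 in both pairs of one state or population and on the other side in both pairs of the other. For all of them the difference itself was not tested, and a list's median can fall on either side of 0 by chance. Between stimulated and resting pairs, the mean of the medians was higher after stimulation by 0.58 for immediate early genes, by 0.53 for MAP kinase phosphatases (8 genes), by 0.40 for NR4A and EGR factors (6 genes) and by 0.32 for RGS proteins and other G protein brakes (9 genes). It was higher by 0.28 for naive and conventional T cell genes, by 0.10 for described miR-21 targets and by 0.10 for oxidative phosphorylation subunits (67 genes). Glycolysis genes differed by -0.09 (14 genes). Between CD25High and CD45High pairs, T cell receptor genes differed by 0.05 (26 genes) and neighbours of Mir21a by 0.26 (13 genes). Some of these medians change sign under an alternative: averaging probes gives -0.05 for NR4A and EGR factors in the stimulated CD25High pair and -0.11 for RGS proteins in the stimulated CD45High pair, cyclic loess gives -0.02 for T cell receptor genes in the stimulated CD25High pair, and leaving out between-array normalization gives -0.14 for miR-21 targets and -0.10 for oxidative phosphorylation in the stimulated CD45High pair and 0.30 for glycolysis in the stimulated CD25High pair. Without that normalization the median of all probes is itself -0.15 in the stimulated CD45High pair and 0.26 in the stimulated CD25High pair.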

How the results depend on the processing

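Counts of probes over 2-fold apart and of disagreeing genes depended on the treatment of dim signal. Without background correction the CD25High pair had 21 higher and 409 lower probes, the CD45High pair 1 and 0, and probes disagreed in 250 and 3 genes. With an offset of 50 the numbers were 64 and 643, 2 and 2, and 408 and 5. Without between-array normalization limma called 11 probes higher and 626 lower over both pairs and 5 and 176 for stimulated minus resting, with 450 higher in the CD25High pair and 4 higher and 44 lower in the CD45High pair; the median of all probes then stood at 0.26 and -0.15 in the 2 pairs. Cyclic loess gave 176 higher in the CD25High pair. With 0.01 as the limit of loss, 388 probes were lost in WT CD25High cells, and 656 in KO and 234 in WT CD45High cells. The cause of these shifts was not tested. The deposited log2 values and the other detection filters kept the 2-fold counts, the disagreeing genes and the limma calls within 1.5 times. For eBayes with trend and robust settings and for the 4 stimulated arrays alone, limma calls were the only counts made, and they stayed at 0. Without the replicate block by population, 0 probes were called higher and 0 lower, as with it. Leaving out single arrays gave 0 to 1888 higher and 0 to 1879 lower calls over both pairs, and 0 to 780 and 0 to 1318 for stimulated minus resting; the high values come from leaving out either CD45High stimulated array, when the CD25High pair stands alone. Of 384 list medians under alternatives 28 changed sign, and of 1050 differences of named probes 3 did (Atg2a, Apol9b and Vapa). With 1 array per combination, dim probes limit what can be told apart: the median bead SE of a difference was 0.131 in the CD25High and 0.141 in the CD45High pair.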
